A study of Mus musculus with 2 samples.

Results

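Potassium channels are membrane pores that let K+ leave or enter a cell, and they set the resting potential, the shape of the action potential and the firing pattern of neurons. The genes described here are the 59 mouse genes whose symbol is Kcn followed by 1 of the letters a, b, c, g, h, j, k, q, s, t or v and a number, and that had at least 20 UMIs (unique molecular identifiers, each marking 1 captured RNA molecule) in the adult hippocampus or in the embryonic brain. They were chosen by symbol among 32285 genes. The pattern matched 67 symbols, and 8 of these were under the minimum in both libraries and were left out (Kcna7, Kcna10, Kcng4, Kcnj1, Kcnj15, Kcnk15, Kcnk16 and Kcnv2). Of the 59, 50 reached the minimum in the adult library, 56 in the embryonic library and 47 in both.

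The data come from Slide-tags, in which nuclei of a frozen tissue section of 20 µm take up spatial barcodes before single-nucleus RNA sequencing. The adult library was made from a coronal section through the hippocampus of a male mouse of the inbred strain C57BL/6J aged 56 days, and the other from a sagittal section of a C57BL/6J embryo at embryonic day 14 (E14). The sources name neither a treatment nor a genetic change. There was 1 library of each, so no difference was tested between animals, and tissue, age, animal and library cannot be told apart in any value that sets the 2 libraries side by side. Positions of the nuclei were not used here.

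The adult library held 1609 nuclei after filtering with a median of 6607 UMIs each, and the E14 library 9036 nuclei with a median of 4204, and 1 nucleus barcode occurred in both. A nucleus was given a class where its marker UMIs fitted 1 list of 8 markers better than all others, and no channel gene was in any list. Classes carry the ending "-like" because they rest on these lists. In the adult library this gave 209 CA1-like, 412 dentate granule-like, 86 thalamic-like, 143 astrocyte-like and 243 oligodendrocyte-like nuclei, and smaller classes of 23 to 38 nuclei. Dentate granule cells, CA3 and CA1 pyramidal neurons are the successive relays of the hippocampal circuit, and the library labelled hippocampus also held the thalamic-like and 27 cortical excitatory-like nuclei. The 39 nuclei picked by the microglia list were left unnamed, since their median of 2079 UMIs was under the library median divided by 3 and none of that list's markers was among their 10 leading genes. In the adult library 294 nuclei and in the E14 library 5985 nuclei had no class. Levels are sums over the nuclei in a class, scaled to 1000000 UMIs of that class (CPM, counts per 1000000), with 95% exact Poisson intervals, and ratios with 95% exact conditional binomial intervals. All intervals cover counting error only, not the spread between animals.

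The Kcna, Kcnb and Kcnc genes encode voltage-gated pores of the Shaker, Shab and Shaw types, Kcnq genes slow pores, several of which carry the M-current, and Kcnh genes the EAG, ERG and ELK pores. Kcng, Kcns and Kcnv genes encode subunits that form no working channel alone and modify Kcnb pores. Kcnj genes encode inward rectifiers, which hold the membrane near the potassium potential, Kcnk genes the leak channels with a pair of pore segments per subunit, and Kcnt genes pores opened by intracellular sodium. The pore of nearly all of them narrows at a selectivity filter whose core is a glycine, an aromatic residue and a second glycine.

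The codons of this filter core were read from 1 transcript of each gene in GENCODE vM21, on the mouse build GRCm38. Leucine, which is not aromatic, was also accepted in the middle. A threonine or serine codon and then a valine, isoleucine or leucine codon were required before the first glycine. With this search the codons were found in all 58 of the genes searched. The 27-base windows below belong to genes whose levels in the adult classes are described in the text, and the capitals mark the 3 codons, the middle one for tyrosine, phenylalanine or leucine. They show how the genes printed differ at this site, except that the Kcnk1 window lies where other Kcnk genes have their second window.
Kcnh7: accagtgtaGGATTTGGAaatgtgtct
Kcnh1: accagtgtgGGCTTTGGTaacattgcc
Kcnh8: acaagcgttGGGTTTGGGaatgtgtct
Kcnc2: actaccttaGGTTACGGGgatatgtac
Kcng1: acaaccgtaGGCTACGGAgacatggta
Kcna1: accactgtgGGATACGGTgacatgtac
Kcna6: accacggtaGGTTATGGGgacatgtac
Kcnj10: accaccatcGGCTATGGCttccgctac
Kcnj16: accaccattGGATACGGTtaccgctgt
Kcnj8: gtgaccattGGGTTTGGAgggagaatg
Kcnk1: agcaccatcGGCCTGGGGgactatgtt

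In the first window found in each of the 58 genes the middle codon was for tyrosine in 41, for phenylalanine in 15 and for leucine in 2. The leucine genes were Kcnk1 and Kcnk7, where the search found a single window each, starting at codons 225 and 212. A filter with other codons before the first glycine would have been missed, so a single window does not mean a single pore segment. In the Kcnk genes with a pair, the first window started at codons 93 to 164 and the second at codons 199 to 335. The windows of Kcnk1 and Kcnk7 therefore stand at the place of a second window, and are not like the other first windows. The windows of the Kcnh genes printed here have a phenylalanine codon, that of Kcnk1 a leucine codon, and those of Kcna, Kcnc and Kcng a tyrosine codon. A pair of windows was found in 10 genes, all of the Kcnk family. The windows printed lie within 1 exon, for instance at chr2:62777334-62777360 on the minus strand for Kcnh7, chr10:112456226-112456252 on the plus strand for Kcnc2, chr1:172369299-172369325 on the plus strand for Kcnj10 and chr6:126642219-126642245 on the minus strand for Kcna1.

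In the adult library the 59 genes together had 87091 UMIs, or 5675 CPM. Their summed level was 7745 CPM in CA1-like and 7488 CPM in thalamic-like nuclei, 5537 CPM in dentate granule-like nuclei, 2410 CPM in oligodendrocyte-like and 1991 CPM in astrocyte-like nuclei, and 457 CPM in endothelial-like nuclei. Of the 48 genes with at least 20 UMIs in the 5 main classes, 40 were highest in a neuron class (19 in dentate granule-like, 15 in thalamic-like and 6 in CA1-like nuclei) and 8 in a glial class. The highest of the 5 classes was at least 10 times the lowest in 34 genes and at least 100 times in 5, where a class under 3 UMIs was set to 3. A gene was said to mark a class where its level was at least 2 times that of the next of the 5 classes and the lower bound of the interval was above 1. By this rule 21 of the 48 marked a class. Of all 15131 genes tested, between 1.7% (CA1-like) and 7.4% (astrocyte-like) marked a given class, and each share stands with its class below. These are shares for single classes, while the 21 of 48 counts any of the 5. Over all genes 257 marked CA1-like, 319 dentate granule-like, 585 thalamic-like, 1120 astrocyte-like and 935 oligodendrocyte-like nuclei. A gene can mark only 1 class, so the match of the 21 is the sum of these counts, not any 1 share. For the highest class and for the spread no share over all genes was taken, so those counts describe the channel genes alone.

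**Figure D1:**
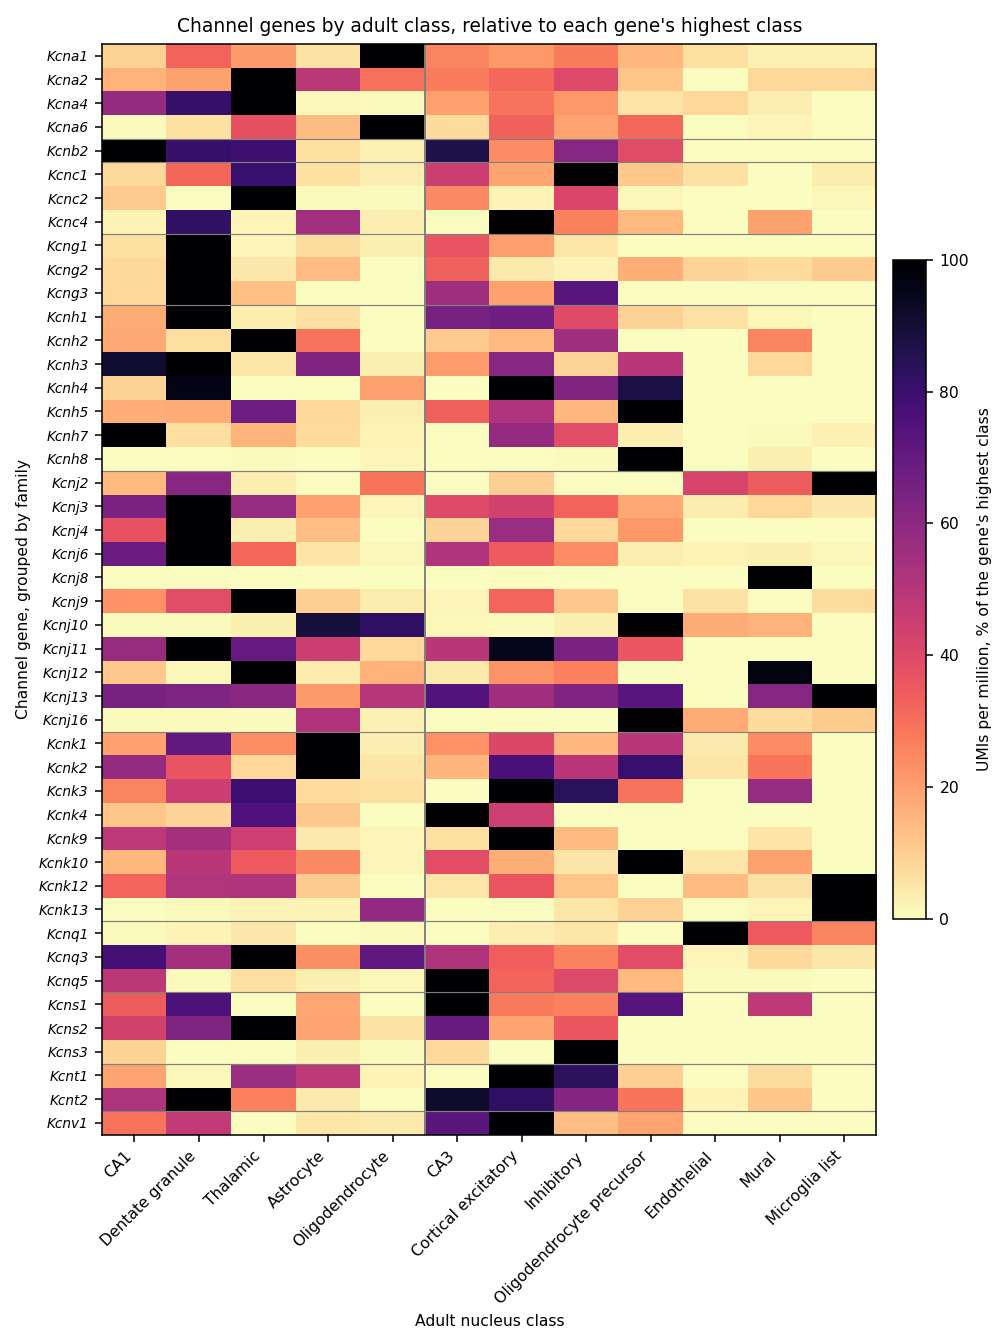
Levels of 46 of the 50 channel genes with at least 20 UMIs in the adult library (rows, grouped by family) in 12 groups of nuclei (columns), as CPM in percent of the gene's highest column. The 5 main classes stand left of the vertical line, and the last column holds the unnamed nuclei picked by the microglia list. Most rows are darkest in a neuron column, and Kcnj8, Kcnk13 and Kcnj10 are darkest outside the neurons.

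CA1-like nuclei were marked by 2 of the 48 genes (4.17%), Kcnh7 and Kcnq5, against 1.7% of all 15131 genes tested. The median log2 ratio of CA1-like nuclei to the highest other class was -1.66 over the 48 and -0.87 over all genes. Kcnh7, an ERG-type pore that opposes repeated firing, had 2314 CPM (2264 to 2365) in CA1-like nuclei, 354 in thalamic-like, 163 in astrocyte-like, 151 in dentate granule-like and 50.6 in oligodendrocyte-like nuclei. The ratio to the next of these classes, the thalamic-like nuclei, was 6.54 (5.98 to 7.18). Among the smaller classes Kcnh7 reached 1343 CPM in cortical excitatory-like and 895 CPM in inhibitory-like nuclei, so it was not particular to CA1. In the 32 CA3-like nuclei it had 3 UMIs, or 4.49 CPM (0.925 to 13.1), and the ratio of CA1-like to CA3-like nuclei was 516 (176 to 2502).

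Kcnq5, which encodes an M-type pore, had 982 CPM (949 to 1015) in CA1-like nuclei, 126 in thalamic-like, 57.7 in astrocyte-like, 25.3 in oligodendrocyte-like and 18.7 in dentate granule-like nuclei. The ratio of CA1-like to dentate granule-like nuclei was 52.4 (43.1 to 64.4). CA3-like nuclei held more Kcnq5 than CA1-like nuclei, at 2011 CPM (1905 to 2122), with a ratio of 2.05 (1.92 to 2.18). Kcnh7 and Kcnq5 thus shared their high level in CA1-like nuclei and their low level in dentate granule-like nuclei, and stood at opposite ends in CA3-like nuclei. CA3-like nuclei also carried the cortical excitatory list at 2161 CPM, beside their own at 2759 CPM. Its part in any value of this class was not tested.

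The same pattern was seen when each nucleus was thinned to 1000 UMIs, which sets classes of different depth on 1 scale. At least 1 UMI of Kcnh7 was found in 150 of 197 CA1-like nuclei (76.1%, exact binomial interval 69.6 to 81.9), in 13.4% of dentate granule-like nuclei and in 0 of 32 CA3-like nuclei. Where no nucleus had a UMI, the limit given is that of 3 nuclei of the total, here a share of up to 9.38%. In endothelial-like nuclei, which are not neurons, the share was 0 of 32. Before thinning the shares were 90.4% in CA1-like nuclei, with a median of 17231 UMIs, and 9.38% in CA3-like nuclei, with a median of 18861. Kcnq5 was found in 52.8% of thinned CA1-like, 65.6% of CA3-like and 1.46% of dentate granule-like nuclei, against 82.3%, 90.6% and 13.1% before thinning.

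Dentate granule-like nuclei were marked by 6 of the 48 genes (12.5%), against 2.11% of all genes tested, and the median log2 ratio to the highest other class was -0.55 over the 48 and -0.76 over all genes. All 3 of the Kcng genes were among the 6. These modifier subunits were at 41.1 CPM (Kcng1), 98.2 CPM (Kcng2) and 10.7 CPM (Kcng3) in dentate granule-like nuclei. In CA1-like nuclei Kcng1 was at 2.55, Kcng2 at 7.64 and Kcng3 at 0.848 CPM. The ratio to the next class was 9.98 (4.09 to 124) for Kcng1 and 7.15 (3.86 to 15.0) for Kcng2. For Kcng3, where the next class was set to 3 UMIs because astrocyte-like nuclei had 0, it was at least 2.60. Kcnb2, one of their usual partners, was spread over all neurons, with 769 CPM in CA1-like, 625 in dentate granule-like and 611 in thalamic-like nuclei. Kcns2 and Kcnv1, other modifier subunits, were at 13.8 CPM each in dentate granule-like nuclei, and marked no class. Kcns2 was highest in thalamic-like nuclei, with a ratio of 1.58 (1.01 to 2.43) to dentate granule-like nuclei.

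Kcnh1, an EAG-type pore, had 302 CPM (287 to 317) in dentate granule-like nuclei, 52.0 in CA1-like, 17.9 in astrocyte-like and 9.16 in thalamic-like nuclei, and 0 UMIs in oligodendrocyte-like nuclei. The ratio to CA1-like nuclei was 5.80 (4.98 to 6.79). Kcnj4, a strong inward rectifier of forebrain neurons, had 51.1 CPM against 18.9 (ratio 2.70, 2.06 to 3.58). Kcnt2, a sodium-activated pore, was also highest in dentate granule-like nuclei, at 422 CPM against 217 in CA1-like and 111 in thalamic-like nuclei, a ratio to CA1-like nuclei below the minimum of 2.

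Thalamic-like nuclei were marked by 8 of the 48 genes (16.7%), the most of the 5 classes, against 3.87% of all genes tested. The median log2 ratio to the highest other class was -1.50 over the 48 and -0.82 over all genes. The 8 were Kcna2, Kcnc1, Kcnc2, Kcnh2, Kcnh5, Kcnj9, Kcnj12 and Kcnk4. Kcnc2, a Shaw-type pore that lets neurons fire at high rates, had 2533 CPM (2451 to 2617) in thalamic-like nuclei, 270 in CA1-like, 19.3 in oligodendrocyte-like, 17.9 in astrocyte-like and 3.64 in dentate granule-like nuclei. Its ratio was 9.37 (8.72 to 10.1) to CA1-like and 696 (450 to 1141) to dentate granule-like nuclei. Inhibitory-like nuclei were next at 1048 CPM, with a ratio of 2.42 (2.21 to 2.65), and CA3-like nuclei had 616 CPM. After thinning, a UMI of Kcnc2 was found in 63 of 79 thalamic-like nuclei (79.7%, 69.2 to 88.0), in 25.4% of CA1-like and in 0.488% of dentate granule-like nuclei, against 88.4%, 78.5% and 3.16% before thinning.

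Other Shaw-type genes had other orders of levels. Kcnc1 was highest in thalamic-like nuclei of the 5 main classes, at 232 CPM against 91.7 in dentate granule-like nuclei (ratio 2.53, 2.19 to 2.91), and was at 288 CPM in inhibitory-like nuclei. Kcnc4 had 30.9 CPM in dentate granule-like nuclei, 20.6 in astrocyte-like and 0.848 in CA1-like nuclei, from 3 UMIs, and marked no class. Dentate granule-like nuclei therefore held Kcnc1 and Kcnc4 with 20 UMIs of Kcnc2, and thalamic-like nuclei held Kcnc1 and Kcnc2 with 1 UMI of Kcnc4.

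The other 6 genes that marked thalamic-like nuclei come from 4 families. Kcna2, a Shaker-type pore of axons, had 132 CPM against 64.5 in astrocyte-like nuclei (ratio 2.05, 1.48 to 2.89). Kcnh5, an EAG-type pore, had 115 CPM against 29.8 in dentate granule-like nuclei (ratio 3.85, 3.08 to 4.81), and 170 CPM in oligodendrocyte precursor-like nuclei. Kcnh2, an ERG-type pore, had 14.1 CPM from 20 UMIs, with a ratio of 3.42 (1.01 to 17.97) to astrocyte-like nuclei, which had 3 UMIs. Kcnj12, a strong inward rectifier, had 37.3 CPM against 6.02 in oligodendrocyte-like nuclei (ratio 6.20, 2.50 to 19.9). Kcnk4, a leak channel opened by stretch, had 28.2 CPM against 4.53 in CA1-like nuclei (ratio 6.23, 3.41 to 11.9), and CA3-like nuclei had 37.4 CPM. Kcnk4 overlaps Catsperz on the same strand, so that reads from the shared part cannot be told apart.

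Kcnj3, Kcnj6 and Kcnj9 encode subunits of the inward rectifiers opened by G proteins, through which many transmitters quiet neurons. They did not follow 1 pattern. Kcnj3 had 724 CPM in dentate granule-like, 468 in CA1-like and 418 in thalamic-like nuclei, and Kcnj6 had 849, 578 and 266 CPM. Kcnj9 had 154 CPM in thalamic-like, 60.0 in dentate granule-like and 35.4 in CA1-like nuclei (ratio of the first pair 2.57, 2.16 to 3.06). In oligodendrocyte-like nuclei the 3 genes were at 13.3 CPM (Kcnj3), 12.0 CPM (Kcnj6) and 6.02 CPM (Kcnj9).

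**Figure D2:**
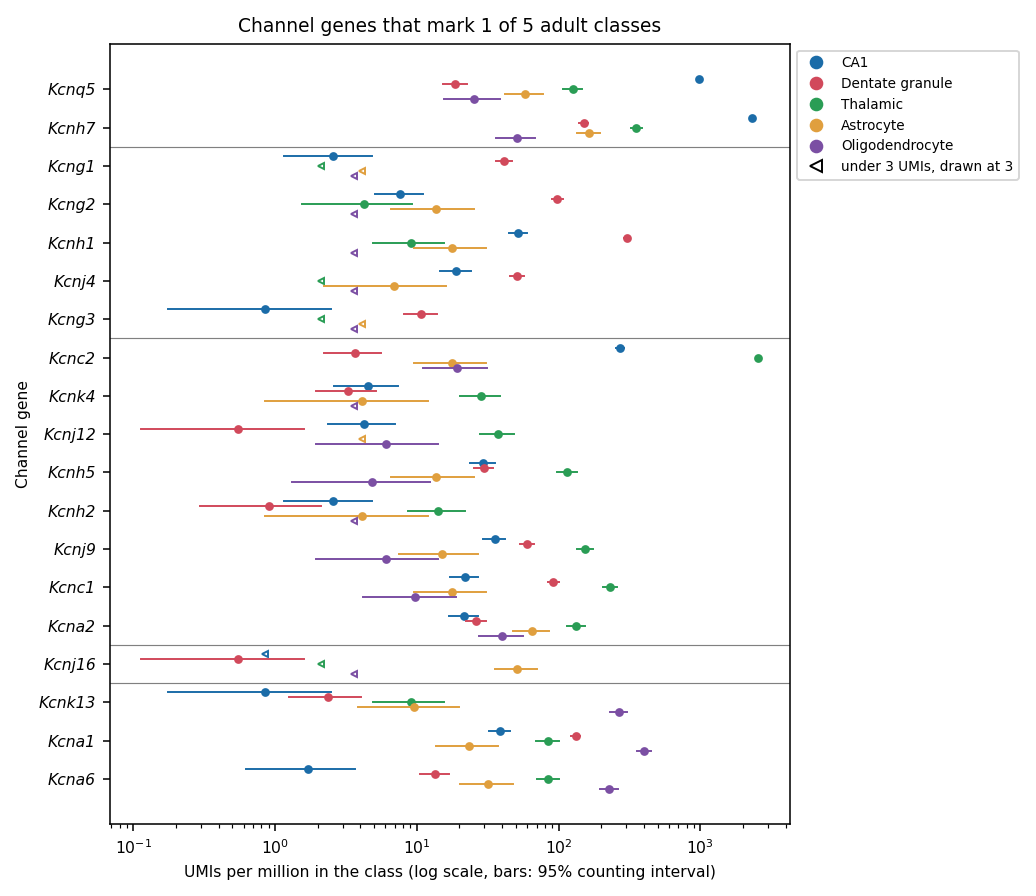
Of the channel genes that marked 1 of the 5 main adult classes, 19 of the 21, with the level in each class as CPM on a log axis and its 95% counting interval as a bar. An open triangle stands at 3 UMIs for a class with fewer. The points of Kcnc2 run from 3.64 in dentate granule-like to 2533 in thalamic-like nuclei, and those of Kcnh7 from 50.6 in oligodendrocyte-like to 2314 in CA1-like nuclei.

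Astrocyte-like nuclei were marked by 2 of the 48 genes (4.17%), Kcnj16 among them, against 7.4% of all genes tested. The median log2 ratio to the highest other class was -2.76 over the 48 and -0.56 over all genes. Kcnj16 encodes the subunit that joins Kcnj10 in the glial inward rectifier, which takes up potassium released by active neurons. It had 50.8 CPM (35.8 to 70.0) from 37 UMIs in astrocyte-like nuclei and 2.41 in oligodendrocyte-like nuclei from 2 UMIs (ratio 14.1, 5.44 to 181, with the latter set to 3 UMIs), and 98.6 CPM in oligodendrocyte precursor-like nuclei. Kcnj16 did not reach a minimum of 50 UMIs in the 5 classes.

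Kcnj10 itself marked neither glial class, because both held it. It had 180 CPM (150 to 213) in astrocyte-like, 166 CPM (140 to 196) in oligodendrocyte-like and 203 CPM (143 to 279) in oligodendrocyte precursor-like nuclei. The ratio of astrocyte-like to oligodendrocyte-like nuclei was 1.08 (0.845 to 1.38). CA1-like nuclei had 0.848, dentate granule-like 0.909 and thalamic-like 5.63 CPM. After thinning, Kcnj10 was found in 19.2% of astrocyte-like, 15.1% of oligodendrocyte-like and 0 of 410 dentate granule-like nuclei, which allows up to 0.732%, against 42.0%, 39.5% and 1.21% before thinning. The leak channel genes Kcnk1 and Kcnk2 were also highest in astrocyte-like nuclei of the 5 classes but below the minimum fold. Kcnk1 had 209 CPM against 147 in dentate granule-like nuclei (ratio 1.42, 1.18 to 1.69), and Kcnk2 163 CPM against 94.7 in CA1-like nuclei (ratio 1.72, 1.39 to 2.13). Astrocyte-like nuclei also carried the cortical excitatory list at 2022 CPM, the dentate granule list at 706 CPM and the oligodendrocyte list at 673 CPM, beside their own at 8292 CPM, and the part of these UMIs in the values was not tested.

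Oligodendrocyte-like nuclei were marked by 3 of the 48 genes (6.25%), Kcna1, Kcna6 and Kcnk13, against 6.18% of all genes tested, and the median log2 ratio to the highest other class was -4.17 over the 48 and -0.68 over all genes. The share of marking genes was near that of all genes, while the typical channel gene stood farther below its highest other class than the typical gene did. Of the other lists these nuclei carried most of the dentate granule list, 724 CPM beside 19677 CPM of their own, and its part was not tested. Kcnk13, a leak channel, had 266 CPM (232 to 304) against 9.61 in astrocyte-like, 9.16 in thalamic-like, 2.36 in dentate granule-like and 0.848 in CA1-like nuclei, with a ratio of 27.7 (13.2 to 69.7) to astrocyte-like nuclei. It was at 453 CPM (328 to 610) in the unnamed nuclei picked by the microglia list, whose leading genes included Ikzf1, Dock8, Selplg, Runx1 and Csf3r, and the ratio to oligodendrocyte-like nuclei was 1.70 (1.20 to 2.37). A UMI of Kcnk13 was found in 20.3% of thinned oligodendrocyte-like nuclei and in 0 of 197 CA1-like nuclei, which allows up to 1.52%, and before thinning in 46.9% and 1.44%.

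Kcna1 and Kcna6, Shaker-type pores best known from axons, marked oligodendrocyte-like nuclei although neurons held them too. Kcna1 had 402 CPM (360 to 448) in oligodendrocyte-like, 132 in dentate granule-like, 83.8 in thalamic-like and 38.7 in CA1-like nuclei (ratio to the next 3.05, 2.67 to 3.47). Kcna6 had 228 CPM (196 to 263), 84.5 in thalamic-like, 31.6 in astrocyte-like and 1.70 in CA1-like nuclei (ratio to the next 2.69, 2.13 to 3.42). The genes are neighbours on the minus strand, at chr6:126640397-126646384 (Kcna1) and chr6:126708329-126740674 (Kcna6). Kcna4, another Shaker-type gene, had 1 UMI each in astrocyte-like and oligodendrocyte-like nuclei and 108 CPM in thalamic-like nuclei. Kcnq3, a subunit of the M-current, was at 1006 CPM in oligodendrocyte-like nuclei, within the range of the neuron classes (1423 in thalamic-like, 1107 in CA1-like and 770 in dentate granule-like nuclei).

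Several channel genes were highest outside the 5 main classes. Kcnh8, an ELK-type pore, had 383 CPM (299 to 484) in the 29 oligodendrocyte precursor-like nuclei and 7.23 in oligodendrocyte-like nuclei, a ratio of 53.0 (23.2 to 149), and at most 3.52 CPM in CA1-like, dentate granule-like and thalamic-like nuclei. Kcnk10 had 186 CPM in oligodendrocyte precursor-like and 91.7 in dentate granule-like nuclei (ratio 2.03, 1.39 to 2.88). Oligodendrocyte precursor-like nuclei also carried the inhibitory list at 2082 CPM and the astrocyte list at 1709 CPM, beside their own at 9126 CPM, and the part of these UMIs in any value of the class was not tested. Kcnj8, the pore of the ATP-sensitive channel of vessel walls, had 78 UMIs in 23 mural-like nuclei, 281 CPM (222 to 351), and 0 UMIs in each of the other named adult classes. Against CA1-like nuclei, set to 3 UMIs, the level was at least 331-fold higher. The mural-like nuclei also carried the endothelial list at 12268 CPM and the astrocyte list at 3734 CPM, and endothelial-like nuclei themselves had 0 UMIs of Kcnj8. The receptor subunit that pairs with this pore, Abcc9, had 346 CPM in mural-like nuclei as well. Kcns3, Kcnq1 and Kcnk6 were chosen for mention after their values were seen. Kcns3, a modifier subunit, had 141 CPM in inhibitory-like and 12.7 in CA1-like nuclei (ratio 11.1, 7.53 to 16.5). Kcnq1 had 123 CPM in endothelial-like nuclei from 14 UMIs, and Kcnk6 had 84.2 CPM from 8 UMIs in the nuclei picked by the microglia list.

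Kcnj13 was between 26.5 and 34.2 CPM in 4 of the 5 main classes and at 11.0 CPM, from 8 UMIs, in astrocyte-like nuclei. The gene lies at chr1:87386363-87394729 and overlaps Gigyf2 on the opposite strand, and the part of the overlap in these counts was not tested. Kcnh1, Kcnh3 and Kcnh7 also overlap a coding gene on the opposite strand (Hhat, Mcrs1 and Gca).

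Between the libraries, 32 of the 59 genes (54.2%) were at least 2-fold higher in the adult hippocampus by the same rule, against 16.9% of all 20842 genes tested. In the other direction 10 of 59 (16.9%) were higher in the E14 brain, against 21.8% of all genes. Channel genes entered by reaching the minimum UMIs in either library, and 47 reached it in both. On the E14 side, Kcnh6, Kcnj5, Kcnk5 and Kcnk7 were under it in the adult. On the adult side, Kcnj4, Kcnj16 and Kcns1 were under it at E14. Each of these genes thus entered only through the library in which it was called higher. Shares for the 47 alone are not given. The median log2 ratio of adult to E14 was 1.43 over the 59 genes and -0.16 over all genes. These values sum all nuclei of each library, so they mix classes that differ between the tissues. Together the 59 genes were at 5675 CPM in the adult and 3503 CPM in the E14 library.

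The adult side held 4 of 6 Kcna, 3 of 4 Kcnc, 9 of 13 Kcnj, 6 of 12 Kcnk and 2 of 8 Kcnh genes, and 6 of the 7 Kcng, Kcns and Kcnv modifier genes. Kcnj4 had 405 UMIs in the adult and 4 in the E14 library, or 26.4 and 0.0679 CPM (ratio 389, 151 to 1434). Kcna1 had 107 and 1.49 CPM (ratio 71.4, 57.6 to 89.5), and Kcna2 41.2 and 3.60 CPM (ratio 11.5, 9.80 to 13.5). Kcnh3, an ELK-type pore of forebrain neurons, had 31.4 and 1.43 CPM (ratio 22.0, 17.4 to 28.1), Kcng2 42.8 and 3.26 CPM (ratio 13.1, 11.2 to 15.5) and the leak channel gene Kcnk12 22.2 and 1.85 CPM (ratio 12.0, 9.63 to 15.0). Kcnk9 had 27.8 and 2.60 CPM (ratio 10.7, 8.87 to 12.9). Among the genes opened by G proteins, Kcnj6 had 526 and 69.2 CPM (ratio 7.59, 7.31 to 7.89), Kcnj3 467 and 80.3 CPM (ratio 5.82, 5.61 to 6.04) and Kcnj9 50.3 and 10.5 CPM (ratio 4.79, 4.30 to 5.33).

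The E14 side held 4 of 8 Kcnh genes, 3 of 12 Kcnk genes, 2 of 13 Kcnj genes and 1 of 5 Kcnq genes. Kcnh8 had the largest ratio, with 202 CPM at E14 and 6.26 CPM in the adult (ratio 32.3, 26.4 to 39.9). Kcnk5 had 3.11 and 0.456 CPM (ratio 6.81, 3.24 to 17.2), Kcnh4 18.9 and 3.00 CPM (ratio 6.31, 4.70 to 8.67), Kcnk7 5.36 and 1.24 CPM (ratio 4.33, 2.73 to 7.29), and Kcnj5 1.95 and 0.521 CPM (ratio 3.74, 1.84 to 8.88). Kcnk10 had 216 and 58.4 CPM (ratio 3.70, 3.46 to 3.97). Kcnq3, on the adult side, had 841 CPM in the adult and 313 CPM at E14 (ratio 2.69, 2.63 to 2.75). Some genes differed by less than 2-fold. Kcnh7 had 728 and 648 CPM (ratio 1.12, 1.10 to 1.15) and Kcnb2 541 and 813 CPM (ratio 0.666, 0.650 to 0.681). Across the 59 genes the Spearman correlation of gene length with this ratio was -0.16, a description over genes that share the 2 libraries.

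**Figure D3:**
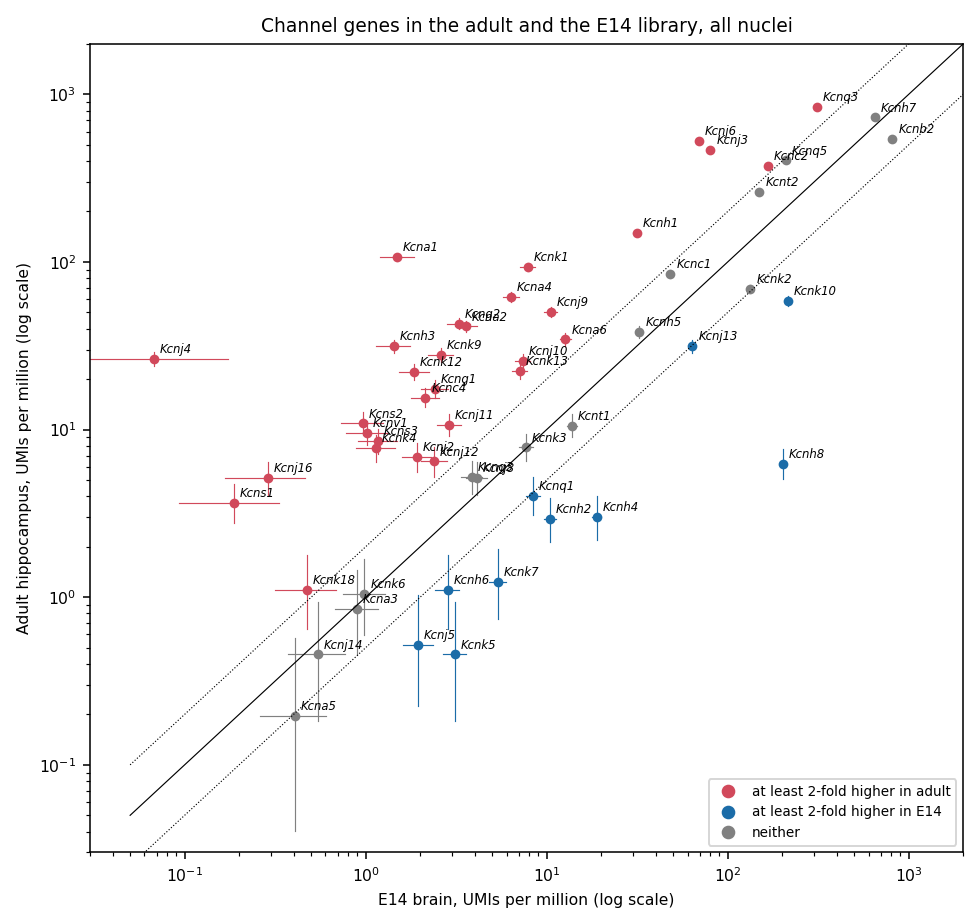
Level of each of 55 of the 59 channel genes in the E14 library (horizontal axis) and the adult library (vertical axis), as CPM over all nuclei on log axes, with 95% counting intervals as bars. The solid line marks equal levels and the dotted lines 2-fold differences. The 30 genes drawn as higher in the adult lie above the upper dotted line, Kcnj4 and Kcna1 farthest from it, and Kcnh8 lies farthest below the lower one.

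Thalamic-like nuclei were compared between the libraries, with 86 adult and 745 E14 nuclei, chosen with lists that share only some markers. The E14 class was less distinct. Of its 8 markers 5 were detected at 2 or more times the level of the other nuclei, against 8 of 8 in the adult. The list was at 6562 CPM in the E14 class and 1311 CPM in the other E14 nuclei, against 7277 and 419 CPM in the adult. The part of this in the ratios was not tested. Cortical excitatory-like nuclei were also in both libraries, but only 27 in the adult, and were not compared. Here 19 of 41 genes tested (46.3%) were higher in the adult, against 14.8% of all 13769 genes, and 6 of 41 (14.6%) were higher at E14, against 22.7%. The median log2 ratio was 0.83 over the 41 and -0.17 over all genes. All 4 of the Kcna genes and all 3 of the Kcnc genes tested were on the adult side. Kcna1 had 83.8 CPM in adult and 1.61 CPM in E14 thalamic-like nuclei (ratio 52.0, 25.6 to 123), and Kcna2 132 and 3.22 CPM (ratio 41.1, 24.7 to 73.4). Kcnc2 had 2533 and 414 CPM (ratio 6.12, 5.79 to 6.46), larger than its ratio of 2.25 (2.17 to 2.32) over all nuclei. Kcnj9 had 154 and 10.7 CPM (ratio 14.5, 10.7 to 19.9), and Kcnj6 266 and 215 CPM (ratio 1.24, 1.10 to 1.40).

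On the E14 side of the thalamic-like class, Kcnh8 had 248 CPM against 3.52 CPM in the adult (ratio 70.4, 30.1 to 217). Kcnk2 had 152 against 13.4 CPM (ratio 11.4, 7.23 to 19.0) and Kcnk10 264 against 64.8 CPM (ratio 4.08, 3.30 to 5.09). The E14 thalamic-like level of Kcnk2 was below its level in E14 erythroid-like nuclei, of the red blood cell line, which is given further below. The part of RNA from outside these nuclei in the E14 values was not tested. Kcnh4 had 110 UMIs at E14 and 0 in the adult, and was at least 10.5-fold higher. Kcnh1 had 19.9 against 9.16 CPM (ratio 2.18, 1.22 to 4.23), the opposite direction to its sum over all nuclei, where the dentate granule-like nuclei enter. Kcnk7 had 30 UMIs against 1.

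Within the E14 library, the cortical excitatory-like (363), forebrain GABAergic-like (597) and thalamic-like (745) nuclei were summed and set against 319 radial glia-like nuclei, the progenitors from which neurons and later astrocytes arise. Of the 43 genes tested, 24 (55.8%) were higher in the neurons, against 10.6% of all 15923 genes, and 4 (9.3%) were higher in radial glia-like nuclei, against 15.9%. The median log2 ratio of neurons to radial glia-like nuclei was 1.15 over the 43 and -0.25 over all genes. TMM scaling, which centres on the typical gene, raised the log2 ratios by 0.32, and all differences within E14 are to be read relative to that. Radial glia-like nuclei carried the thalamic list at 1412 CPM beside their own at 1623 CPM, and its part in these ratios was not tested. The radial glia list was higher in mesenchyme-like nuclei, at 1888 CPM. Of the 319 radial glia-like nuclei, 160 were less than 10000 times likelier under their own class profile than under the next, so the class is loosely bounded. Channel UMIs also occurred in E14 nuclei that are not neural. In 109 erythroid-like nuclei, of the red blood cell line, the 19 genes with at least 1000 UMIs had a median of 0.630 times their level over all nuclei (0.310 to 1.91), and in endothelial-like nuclei 0.440 times. In adult endothelial-like nuclei the same value over 16 genes was 0.0334.

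Kcnj6 had 104 CPM in the E14 neurons and 8.81 CPM in radial glia-like nuclei (ratio 11.8, 7.79 to 19.0). Within the neurons it was at 215 CPM in thalamic-like, 37.0 in cortical excitatory-like and 22.5 in forebrain GABAergic-like nuclei, with 34.9 in erythroid-like nuclei. Kcnc2 had 279 and 31.6 CPM (ratio 8.81, 7.05 to 11.2), with 414 CPM in thalamic-like, 270 in forebrain GABAergic-like, 106 in cortical excitatory-like and 87.7 in erythroid-like nuclei. After thinning, Kcnc2 was found in 27.8% of E14 thalamic-like, 1.93% of radial glia-like and 13.4% of erythroid-like nuclei, of which 67 of 109 held enough UMIs. Its thalamic-like level thus stood above the erythroid-like one, and its radial glia-like level below it. Kcnj3 had 110 and 21.2 CPM (ratio 5.18, 3.94 to 6.95), Kcnh2 11.1 and 2.80 CPM (ratio 3.97, 1.88 to 10.1) and Kcnb2 819 and 223 CPM (ratio 3.67, 3.37 to 4.01). For Kcnb2 the erythroid-like nuclei had 557 CPM, above the radial glia-like level, and the part of free RNA in these values was not tested. Kcnh7 differed by less than 2-fold, at 768 and 595 CPM (ratio 1.29, 1.22 to 1.36), with 577 CPM in erythroid-like nuclei.

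Kcnj10 and Kcnk5 were the clearest on the radial glia-like side. Kcnj10 had 50.1 CPM (41.7 to 59.6) against 3.57 CPM in neurons (ratio of neurons to radial glia-like nuclei 0.0714, 0.0494 to 0.101), with 17.9 CPM in intermediate progenitor-like and 6.75 in erythroid-like nuclei. It thus had its highest level among these E14 classes in the class that precedes astrocytes, and Kcnj16 had 1 UMI there. Kcnk5 had 17.6 CPM against 0.975 CPM (ratio 18.1, 9.38 to 37.6). Kcnj9 had 21.2 against 9.10 CPM (ratio 2.33, 1.65 to 3.26) and Kcnq1 7.61 against 3.66 CPM (ratio 2.08, 1.15 to 3.63), and with TMM scaling both fell below the minimum of 2, leaving 2 genes on this side. Kcnj9 and Kcnj10 are neighbours on opposite strands, at chr1:172320501-172329318 and chr1:172341210-172374085. Kcnk10 was also higher in radial glia-like nuclei, at 425 against 223 CPM, by slightly less than 2-fold.

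**Figure D4:**
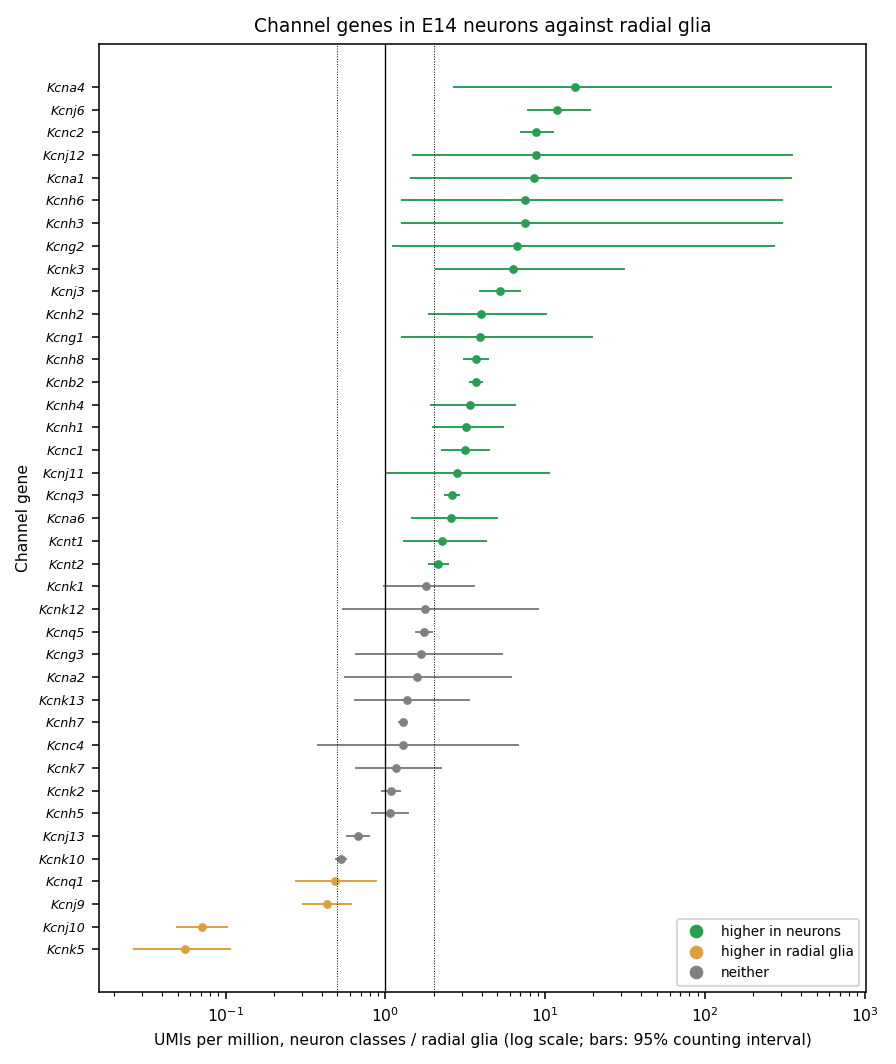
Ratio of CPM in the summed E14 neuron classes to that in radial glia-like nuclei for 39 of the 43 channel genes tested, on a log axis with 95% counting intervals as bars, the points drawn from the counts without setting those under 3 UMIs to 3. The solid line marks equal levels and the dotted lines 2-fold differences. Of the 22 genes drawn as higher in neurons, Kcnj6 and Kcnc2 have the largest ratios among those with at least 3 UMIs in radial glia-like nuclei, the point of Kcna4 rests on 1 UMI there (ratio 5.14 with that count set to 3), and Kcnk5 and Kcnj10 lie lowest.

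Outside these classes, E14 levels of a few channel genes followed single classes. Kcnj13 had 187 CPM (165 to 210) in choroid plexus-like nuclei, against 46.1 to 79.7 CPM in every other E14 class. Kcnj5 had 53.2 CPM in Cajal-Retzius-like nuclei from 49 of its 115 UMIs. Kcnj8 had 125 CPM in mural-like and 79.3 CPM in endothelial-like nuclei, against 8 UMIs in erythroid-like nuclei. The mural and endothelial lists overlapped in these classes, the mural list at 1307 CPM in mural-like and 637 CPM in endothelial-like nuclei, and the endothelial list at 1704 CPM in mural-like nuclei, and the part of this overlap was not tested. Kcnq1 had 94.2 CPM in endothelial-like nuclei, against 40.5 in erythroid-like nuclei. Kcnk2 and Kcnt2 had 408 and 454 CPM in mesenchyme-like nuclei, against 255 and 107 CPM in erythroid-like nuclei. Mesenchyme-like nuclei also carried the thalamic list at 4576 CPM and the radial glia list at 1888 CPM, beside their own at 5044 CPM, and the part of these UMIs was not tested. The highest level of Kcnb2 was in Cajal-Retzius-like nuclei, 1854 CPM. Kcnk13 had 51.2 CPM in microglia-like nuclei and was found in 11.5% of them after thinning, against 1.49% of erythroid-like nuclei.

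Potassium channel genes outside the symbol pattern were read from a list of 29, which holds the Kcnd and Kcnf1 pores, the calcium-activated pores, and the Kcne, Kcnab, Kcnip, Kcnmb, Dpp and Abcc subunits. Of the 24 tested, 10 (41.7%) were higher in the adult, against 16.9% of all genes, and 4 (16.7%) at E14, against 21.8%. Kcnd2, Kcnip2, Kcnip3 and Kcnip4, the A-type pore and its calcium-binding partners, and Kcnab1, Kcnab2 and Kcnab3, partners of the Kcna pores, were among the 10, whereas Kcnip1 was higher at E14. Of 20 tested over the adult classes, Abcc8 marked dentate granule-like nuclei (84.7 CPM against 39.9 in CA1-like nuclei), and Kcnf1 and Kcnmb2 marked thalamic-like nuclei (28.2 and 128 CPM). These are 5% and 10% of the 20, against 2.11% and 3.87% of all genes tested. Kcnf1 had 29.1 CPM, from 14 UMIs, in cortical excitatory-like nuclei. Kcnmb2 had 909 CPM in inhibitory-like nuclei. Kcnj11, the pore that pairs with Abcc8 and was chosen for mention after its values were seen, had 15.3 CPM in dentate granule-like and 8.77 CPM in CA1-like nuclei.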

How the data were processed

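Nuclei were sequenced as 3′ gene expression libraries. The deposited values are raw UMI counts for each gene in each nucleus, which the authors obtained by alignment to mm10, introns included. Per the file headers the counts were written by Cell Ranger 6.1.2 for the adult hippocampus and 7.0.1 for the E14 brain. For the E14 brain the authors' methods also name CellBender, and the deposited matrix was treated as not yet corrected by it. Whether counting used strand is not given in the sources used here.

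Filters of 500 UMIs as a minimum and 5% mitochondrial UMIs as a maximum left 1609 of 1661 adult and 9036 of 9037 E14 barcodes, with 15346746 and 58923882 UMIs. A nucleus entered a class where its UMIs over 13 adult or 12 E14 lists of 8 markers were at least 100 times likelier under 1 class profile than under the next and at least 2 of that list's markers were detected. The profiles came from seed nuclei with at least 3 UMIs from 3 markers of a list and 2 times the score of the next. The scoring was set after the data were seen. The channel genes and lists were chosen with earlier results of these data known.

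UMIs were summed per class. With 1 library per tissue no test was made, and a gene was called where it had at least 20 UMIs over the groups compared, a ratio of at least 2 and a lower 95% bound above 1. Counts under 3 were set to 3. Named genes were those that marked a class, the 5 with the largest ratio in each direction (at least 100 UMIs) and a list of textbook channels, and those outside this rule are marked as chosen after their values were seen. Shares of nuclei used nuclei thinned to 1000 UMIs, with shallower nuclei left out (2 to 18 of each main adult class). Scrublet in scanpy 1.11.5 marked 6 adult and 4 E14 nuclei by its own threshold, which was judged not to have worked, so the 21 and 653 nuclei of highest score were removed as an alternative only. Clusters for an alternative came from Seurat 5.3.0 and TMM factors from edgeR 4.0.16 in R 4.3.3, and intervals from scipy 1.17.1. The call was tested on simulated counts. Some genes and sequences that enter the counts are not reported here, and those genes are not drawn in the figures.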

Additional observations from a re-analysis of the deposited data

How the results depend on the processing

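Counts of called channel genes were recomputed under up to 11 other settings each, 111 values in all, and 104 stayed within 1.5 times the reported count. A minimum fold of 3 lowered the counts to 3 genes for dentate granule-like nuclei, 5 for thalamic-like nuclei, 13 for E14 neurons and 2 for E14 radial glia-like nuclei. TMM scaling also gave 2 for the latter. Leaving out nuclei with 1% or more mitochondrial UMIs left 1 gene for astrocyte-like nuclei, and a minimum of 50 UMIs per gene left 0, since neither gene was then tested. Of 821 values of single named genes, 775 kept their call, 45 lost it in the same direction and 1 reversed, Kcnt2 in E14 neurons against radial glia-like nuclei, whose ratio became 0.889 with a marker lead of 4 times. The cause was not tested. Kcnh7, Kcnq5, Kcnc2, Kcnh1, Kcna1 and Kcnk13 kept their class call in 11 of 11 settings, and Kcnh2 in 8. Kcnj13 kept its E14 call in 4 of 8. Thinning to 2000 UMIs moved 6 of 8 shares of nuclei upward. No paired analysis was possible because each tissue has 1 library. Depth limits the small classes, where single values rest on as few as 3 UMIs, as for Kcnh7 in CA3-like nuclei.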
